A study of Mus musculus with 2 samples.

Results

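The genes described here were the cytochrome P450 genes of the mouse outside sterol synthesis and the first steps of steroid synthesis, as read by a pair of promoter arrays after chromatin immunoprecipitation of CREM from testis. They were chosen by name: every probe whose gene name on the array was Cyp followed by a number, a letter and a number belonged to them, with Cyp51, Cyp11a1 and Cyp17a1 kept out. This gave 72 of 17850 gene names and 1305 of 474380 probes, 36 genes on each array. The germ cells came from 5 testes of adult male C57BL/6 mice, pooled, fixed with formaldehyde and sonicated. The CREM precipitate (antibody sc-440) carried Cy5 and the goat IgG precipitate carried Cy3, on both arrays. The arrays carried different probes and each was hybridised 1 time, so every value below is a single measurement with no replicate error, no test was possible, and a difference of antibody and a difference of dye cannot be told apart. The material was genomic DNA, so no RNA marker could check the cell type.

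Cytochrome P450 enzymes are haem proteins that insert oxygen into lipids and foreign compounds. Some act on hormones and vitamins, such as retinoic acid, vitamin D, oestrogens and bile acids, while the large families with the numbers 2, 3 and 4 in their names mostly handle drugs and fatty acids and are best known from liver, kidney, lung and gut. CREM, a relative of CREB, switches on genes of round spermatids and binds the cAMP response element TGACGTCA or its core TGACG. In the testis, retinoic acid drives germ cell entry into meiosis and its clearance by the Cyp26 enzymes limits this, and aromatase (Cyp19a1) makes oestrogen in several testicular cell types.

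Values are log2 of the processed CREM signal over the processed IgG signal, centred on the median of each array, so that 0 is the typical probe and 1 is a 2-fold higher CREM signal. A window is a run of 3 probes, each starting no more than 500 bp from the next, and its value is their median. A gene was called on the CREM side when its highest window was at 1 or more, and on the IgG side when its lowest window was at -1 or less. The IgG side was read by the same rule, but its calls differed from those of the CREM side in brightness and base composition, as given below, so it is not a like-for-like background. Of the 72 genes, 65 had a window. The other 7 (Cyp2a12, Cyp2c67, Cyp3a16, Cyp3a25, Cyp3a44, Cyp3a59 and Cyp4a31) carried 1 to 5 probes each, with no 3 close enough for a window. Their probe medians lay between -0.07 for Cyp4a31 and 0.29 for Cyp2c67, and their highest single probe was 1.05, in Cyp4a31.

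The probes of the 3 highest and the 3 lowest windows among the P450 genes are given first, because the windows of each side differed in base composition. Each is an array probe in mm9 coordinates, with its CG dinucleotides in capitals. The highest windows belonged to Cyp2c65, Cyp2d26 and Cyp4b1, whose enzymes oxidise drugs and fatty acids.
Cyp2c65 chr19:39135265-39135324: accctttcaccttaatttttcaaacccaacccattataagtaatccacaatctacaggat
Cyp2c65 chr19:39135722-39135771: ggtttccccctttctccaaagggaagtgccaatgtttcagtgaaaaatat
Cyp2c65 chr19:39135825-39135884: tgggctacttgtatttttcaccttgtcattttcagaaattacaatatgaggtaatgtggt
Cyp2d26 chr15:82625075-82625128: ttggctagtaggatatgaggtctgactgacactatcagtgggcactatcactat
Cyp2d26 chr15:82625236-82625285: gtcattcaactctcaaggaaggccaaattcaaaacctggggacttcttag
Cyp2d26 chr15:82625363-82625420: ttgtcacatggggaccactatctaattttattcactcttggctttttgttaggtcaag
Cyp4b1 chr4:115320835-115320893: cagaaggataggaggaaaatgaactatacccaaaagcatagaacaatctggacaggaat
Cyp4b1 chr4:115320966-115321021: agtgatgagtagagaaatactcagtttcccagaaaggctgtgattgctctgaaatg
Cyp4b1 chr4:115321117-115321171: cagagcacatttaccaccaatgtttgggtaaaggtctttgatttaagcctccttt

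The lowest windows belonged to Cyp26c1, a retinoic acid hydroxylase, Cyp1b1, which oxidises oestrogens and polycyclic hydrocarbons, and Cyp2s1, a family 2 enzyme of epithelia.
Cyp26c1 chr19:37767280-37767331: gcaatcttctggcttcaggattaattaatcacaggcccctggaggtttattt
Cyp26c1 chr19:37767501-37767545: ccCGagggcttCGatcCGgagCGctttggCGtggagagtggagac
Cyp26c1 chr19:37767612-37767656: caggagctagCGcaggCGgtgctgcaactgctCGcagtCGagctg
Cyp1b1 chr17:80112824-80112868: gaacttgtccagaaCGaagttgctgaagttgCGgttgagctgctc
Cyp1b1 chr17:80112968-80113012: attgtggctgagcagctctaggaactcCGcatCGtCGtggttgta
Cyp1b1 chr17:80113203-80113247: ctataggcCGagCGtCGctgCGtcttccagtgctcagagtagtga
Cyp2s1 chr7:26601385-26601429: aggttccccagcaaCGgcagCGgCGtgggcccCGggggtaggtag
Cyp2s1 chr7:26601535-26601579: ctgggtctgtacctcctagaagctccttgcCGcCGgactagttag
Cyp2s1 chr7:26601701-26601745: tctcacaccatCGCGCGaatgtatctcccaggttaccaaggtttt

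The 9 probes of the 3 highest windows held 0 CG dinucleotides and the 9 probes of the 3 lowest windows held 27. No probe of either set held the core TGACG on either strand.

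A smaller share of the P450 genes was called than of all genes, on both sides. On array 1, 3 of 30 P450 genes (10%, exact 95% interval 2.11 to 26.5%) were called on the CREM side, against 33.3% of all genes. On array 2 it was 4 of 35 (11.4%, 3.2 to 26.7%), against 35.5% of all genes. Joined over the arrays, which were scaled separately, 7 of 65 P450 genes (10.8%, 4.44 to 20.9%) were on the CREM side, against 34.4% of all genes. On the IgG side, 4 of 30 P450 genes of array 1 (13.3%) and 3 of 35 of array 2 (8.57%) were called, against 34.4% and 32.9% of all genes, and 33.6% of all genes over both arrays. With these main settings no P450 gene was called on both sides, and 51 lay between the thresholds. The matching shares of all genes were not counted, so neither count sets the P450 genes apart. With dim probes included, Cyp2c29 was called on both sides. With the mean of 3 probes in place of their median, Cyp20a1 was. The intervals cover counting error only, since no array was repeated, and neighbouring windows share probes.

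The same held for the size of the values. The median highest window was 0.48 for the P450 genes (binomial interval over genes 0.38 to 0.57), against 0.77 for all genes. The median lowest window was -0.53 (-0.61 to -0.45), against -0.76 for all genes. With these settings the P450 medians were thus nearer to 0 on both sides. The median highest window of the P450 genes was also the lower one with each of the 15 other settings run. Not all of these could change the order. Leaving out probes nearly identical between P450 genes removed no probe, and no centring moved all values of an array alike. On the IgG side the difference of medians was lost when probes of 48% G and C or more were left out, a setting added after seeing the data. The median was then -0.39 for the P450 genes and -0.38 for all genes, and 0 of 64 P450 genes were called, against 3.74% of all genes. With the trend with G and C content removed, the median lowest window was -0.53 for the P450 genes and -0.59 for all genes, and 6 of 65 P450 genes were called on the IgG side (9.23%), against 12.8% of all genes. Of 814 P450 windows, 16 were at 1 or more (1.97%), against 5.99% of all windows, and 18 were at -1 or less (2.21%), against 4.56% of all windows.

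The P450 genes also carried fewer probes, with a median of 12 windows a gene against 19 for all genes, so that each highest and lowest value was taken over fewer windows. The share called on the CREM side was lower within each class of window number. With 6 to 10 windows it was 1 of 15 (6.67%), against 26% of all genes in that class. With 11 to 20 windows it was 4 of 25 (16%), against 35.2%. With 21 or more it was 2 of 11 (18.2%), against 39.4%. On the IgG side the classes differed in the same direction, with 20% against 28.3% at 11 to 20 windows and 9.09% against 46.1% at 21 or more.

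**Figure D1:**
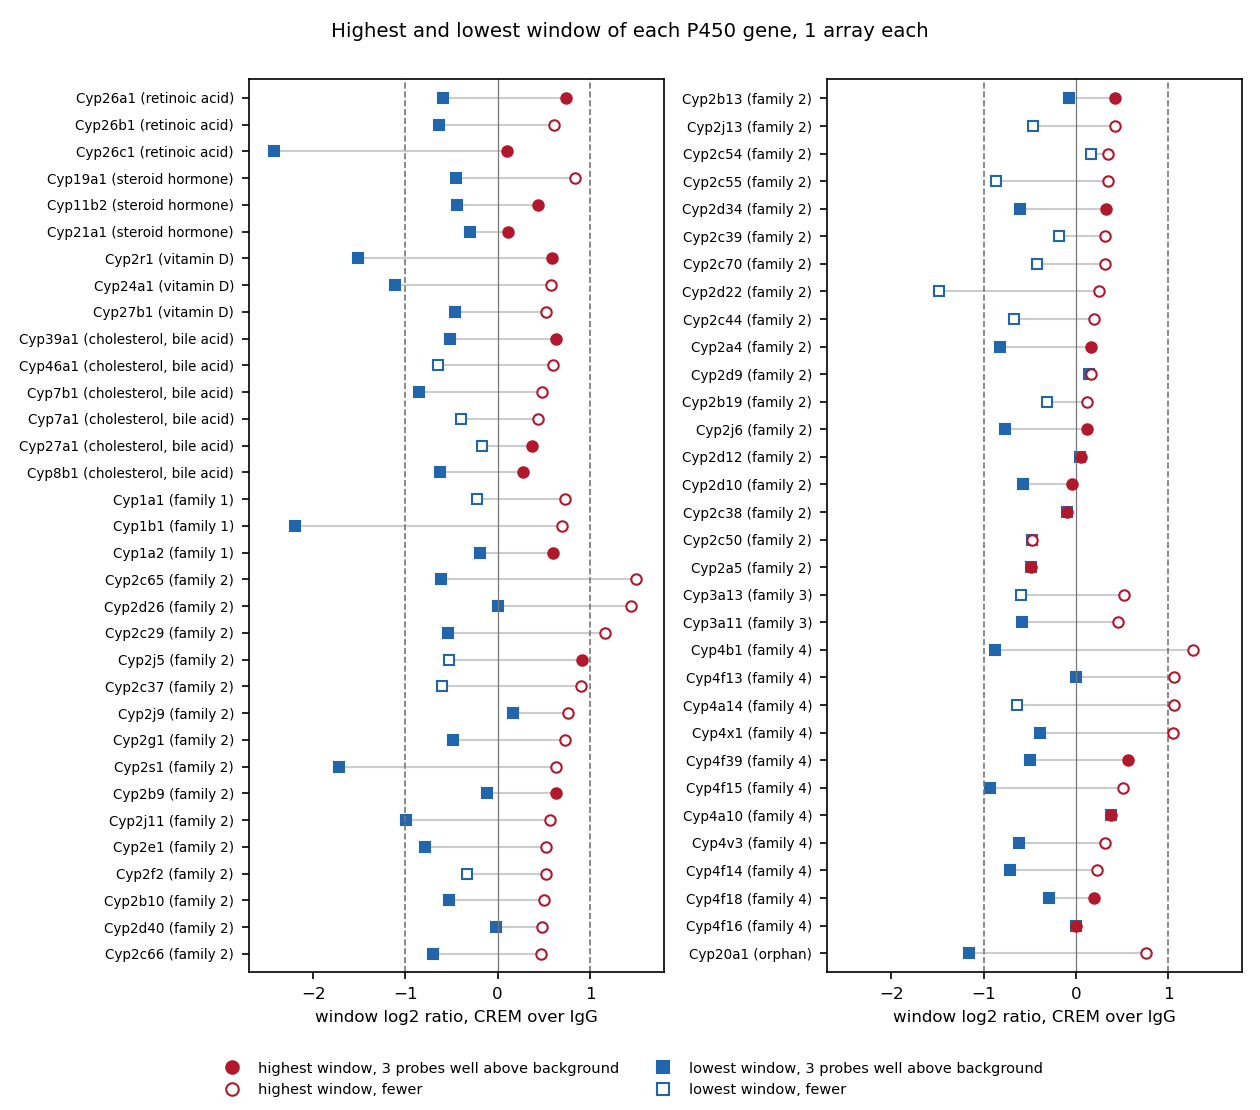
Highest (circles) and lowest (squares) window of each of the 65 P450 genes, as log2 of CREM over IgG, ordered by role and then by the highest window; filled symbols have no dim probe in the window and dashed lines mark -1 and 1. The 7 circles past 1 are all open, while 6 of the 7 squares past -1 are filled.

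Among the enzymes of retinoic acid clearance, none was called on the CREM side and 1 of 3 on the IgG side, against 34.4% and 33.6% of all genes. The highest window was 0.74 for Cyp26a1, 0.61 for Cyp26b1 and 0.10 for Cyp26c1. The lowest was -0.59 for Cyp26a1, -0.63 for Cyp26b1 and -2.42 for Cyp26c1. The Cyp26c1 window at chr19:37767280-37767656 was the lowest of all P450 windows, and its probes stood at 0.34, -2.42 and -2.85. In that window the CREM signals were 2101, 274 and 432, and the IgG signals 1641, 1448 and 3076. The 5 probes named for Cyp26c1 ended 210 bp before those named for Cyp26a1, and the middle of the window lay at -4775 bp from the start of Cyp26a1. No start of Cyp26c1 itself could be placed on the array. RefSeq places the plus-strand promoters of Cyp26c1 and Cyp26a1 from chr19:37685430 and 37697558 of GRCm38.p6. If that distance holds on mm9, this window lay downstream of the Cyp26c1 start and nearer to that of Cyp26a1, not at its own promoter. Cyp26a1, the main retinoic acid hydroxylase of the embryo, had 4 of its 11 probes with at least 48% G and C at -1 or less, but none of its windows was called.

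The steroid hormone genes stayed between the thresholds. Cyp19a1, the aromatase that makes oestrogens, had its highest window at 0.83 (probes at 1.35, 0.79 and 0.83) and its lowest at -0.45. Its highest window lay at -4092.5 bp from the matched start, with 1 of the 3 probes well above background in both channels. Within 300 bp of that start its 3 probes were all above 0, with a median of 0.46. RefSeq places Cyp19a1 promoters from chr9:54193694, 54228865 and 54268115 of GRCm38.p6. The array probes spanned only chr9:54039099-54046705 on mm9, around the 1 matched start, so the other promoters of Cyp19a1 were not measured. Cyp11b2, which makes aldosterone, and Cyp21a1, an adrenal enzyme of corticosteroid synthesis, reached 0.43 and 0.12.

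Of the 3 vitamin D genes, 2 were called on the IgG side, against 33.6% of all genes, and 3 genes are too few to read a difference. Cyp2r1, an enzyme that starts the activation of vitamin D, had its lowest window at -1.52 (chr7:121705947-121706245, probes at 0.06, -1.52 and -2.13). Cyp24a1, which inactivates the hormone, had its lowest at -1.11 (chr2:170322666-170323031, probes at -0.75, -1.11 and -1.36). Cyp27b1, which makes the active hormone in the kidney, stayed between 0.52 and -0.47. All 3 probes of the Cyp2r1 and Cyp24a1 windows were well above background in both channels. With the trend with G and C content removed, the lowest windows of Cyp2r1 and Cyp24a1 were -0.95 and -0.53, so neither was called.

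None of the 6 genes of cholesterol and bile acid metabolism was called on either side, against 34.4% (CREM) and 33.6% (IgG) of all genes. Their highest windows ran from 0.27 for Cyp8b1, which directs synthesis to cholic acid, to 0.63 for Cyp39a1, an oxysterol hydroxylase. Their lowest ran from -0.17 for Cyp27a1, which oxidises the sterol side chain, to -0.85 for Cyp7b1, also an oxysterol hydroxylase. Cyp7a1, the rate-limiting enzyme of bile acid synthesis, lay at 0.44 and -0.40.

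Family 1 holds enzymes induced through the aryl hydrocarbon receptor. Their highest windows were 0.73 for Cyp1a1, 0.69 for Cyp1b1 and 0.60 for Cyp1a2. No start could be placed for Cyp1a1. RefSeq places the promoters of Cyp1a2 and Cyp1a1 from chr9:57683606 and 57697363 of GRCm38.p6. If that distance holds on mm9, counted from the matched Cyp1a2 start, the highest and lowest windows of Cyp1a1 (chr9:57550943-57551467) lay downstream of its start, away from its promoter. Cyp1b1 was the exception on the IgG side, with its lowest window at -2.20 (chr17:80112824-80113247) and probes at -3.92, -0.56 and -2.20. The first of these had a CREM signal of 2222 and an IgG signal of 33100. The lowest windows of Cyp1a1 and Cyp1a2 were at -0.22 and -0.19.

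Family 2 was the largest group, with 33 of its 35 genes measured. Of these, 3 were called for CREM (9.09%) and 2 for IgG (6.06%), against 34.4% and 33.6% of all genes. Cyp2c65, whose human relatives oxidise arachidonic acid and drugs, had the highest window of all P450 genes at 1.495 (chr19:39135265-39135884), with probes at -0.76, 1.495 and 1.499. Both high probes of Cyp2c65 were faint, with CREM signals of 169 and 167 and IgG signals of 59.2 and 58.4. The lowest IgG signal counted as well above background on that array was 288, so no fold could be given for them. Cyp2d26 stood at 1.44 (chr15:82625075-82625420, probes at -0.05, 1.44 and 2.03). Cyp2c29 stood at 1.17 (chr19:39360038-39360417, probes at 0.83, 1.17 and 1.52). On the IgG side were Cyp2s1 at -1.72 (chr7:26601385-26601745, probes at -2.23, -1.65 and -1.72) and Cyp2d22 at -1.48 (chr15:82210274-82210541, probes at 0.11, -1.48 and -1.85). Cyp2s1 was the only P450 gene called on the IgG side whose 3 probes were all below -1.5. The 2 genes just under the CREM threshold were Cyp2j5 at 0.92 and Cyp2c37 at 0.91, and the 2 just short of the IgG threshold were Cyp2j11 at -0.99 and Cyp4f15 at -0.93.

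Cyp2j5, an arachidonic acid epoxygenase of the kidney, differed from the called genes in brightness. Its window (chr4:96330733-96331141) had probes at 1.07, 0.89 and 0.92, none of them dim in either channel. The CREM signals of these Cyp2j5 probes were 1726, 1001 and 1731, and the IgG signals 810, 532 and 902. This 1.89-fold difference was the highest among the P450 genes whose highest window held no dim probe. The middle probe lay at -130 bp from the start.

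In family 3, which holds the main liver enzymes of drug and steroid oxidation, only 2 of 6 genes had a window. Cyp3a13 reached 0.52 and Cyp3a11 reached 0.46, and their lowest windows were -0.60 and -0.59. Neither was called.

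Family 4, the fatty acid hydroxylases, gave 4 of the 7 calls on the CREM side from 11 measured genes (36.4%), close to the 34.4% of all genes. It gave none on the IgG side, against 33.6% of all genes. Cyp4b1 stood at 1.27 (chr4:115320835-115321171), and all 3 probes were past 1, at 1.27, 1.02 and 1.64. The neighbouring Cyp4b1 probes at -920.5, -289.5 and -180.5 bp were at 0.38, 0.81 and 0.95, so the probes stayed above 0 from -920.5 to -180.5 bp. Every Cyp4b1 probe of that stretch had an IgG signal not well above background, between 81.0 and 305. Cyp4f13 stood at 1.06 (probes at -0.52, 1.21 and 1.06), Cyp4a14 at 1.06 (0.29, 1.26 and 1.06) and Cyp4x1 at 1.05 (0.18, 1.05 and 1.67), just inside the threshold. Cyp4x1, Cyp4a14 and Cyp4b1 lie in 1 cluster on chromosome 4 (chr4:114804755-115324811), where 3 of 4 genes with a window were called, against 33.3% of all genes of array 1. The other clusters counted below had fewer calls on the CREM side. In these 3 windows no probe was well above background in both channels. All 3 calls were lost with normexp, with loess and with the authors' deposited values (given below). Cyp20a1, an orphan enzyme with no settled substrate, was apart from the families, with its highest window at 0.76 and its lowest at -1.16 (chr1:60399942-60400323, probes at -0.95, -1.16 and -1.39).

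Clustered and single P450 genes were counted apart. Counting as a cluster 3 or more members with gaps of at most 500 kb between neighbours, 7 clusters held 41 of the measured genes, of which 7 were called for CREM (17.1%) and 2 for IgG (4.88%). Of the 24 genes outside clusters, 0 were called for CREM and 5 for IgG (20.8%). All these shares lay under the 34.4% and 33.6% of all genes. Clustered genes also had fewer windows, with a median of 9 against 14.5 outside, and the part of window number in these counts was not tested. The median highest window was 0.46 in clusters and 0.52 outside. Mean probe G and C content was 39.7% in clusters and 41.7% outside. Copies within a cluster can share sequence. Compared probe with probe, 0 of the 1305 came within 6 base changes of a probe of another P450 gene. This does not show whether a probe would bind the DNA of another copy, which was not tested.

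The calls of each side differed in brightness. Of the 7 P450 genes on the CREM side, 0 had a window free of dim probes, against 28.4% of the called windows of all genes. Of the 7 on the IgG side it was 6 (85.7%), against 82% of all genes. Where the IgG signal was not above background, the ratio is only a bound, taken against the lowest signal well above background on the array (306 on array 1 and 288 on array 2). On that bound the CREM signal was at least 1.45-fold higher for Cyp4f13, at least 1.23-fold for Cyp4a14 and at least 1.12-fold for Cyp2d26, and no fold could be given for Cyp2c65, Cyp4b1, Cyp2c29 and Cyp4x1. None of the 65 genes reached 1 on the bound, against 21.3% of all genes.

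Single probes showed the same pattern. Of all 1261 P450 probes used, 68 were at 1 or more (5.39%), against 9.45% of all probes, and 47 were at -1 or less (3.73%), against 6.52%. Among probes well above background in both channels, 6 of 1013 P450 probes were at 1 or more (0.592%, exact 95% interval 0.218 to 1.28%), against 4.87% of all such probes. Among the rest, 62 of 248 P450 probes were (25%, 19.7 to 30.9%), against 29%. The 6 bright P450 probes belonged to Cyp4f13 (1.38 and 1.06), Cyp26a1 (1.20), Cyp4b1 (1.18), Cyp2j9 (1.16) and Cyp2j5 (1.07). On the IgG side, 45 of the 1013 bright P450 probes were at -1 or less (4.44%), against 7.6%, and of the 248 others 2 were (0.806%), against 1.9%.

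Base composition ran along with the sign of the ratio. P450 windows at 1 or more averaged 38.7% G and C, those at -1 or less 55.2% and all P450 windows 41.4%, against 41.0%, 58.5% and 43.1% for all genes. Of 147 P450 probes with at least 48% G and C, 0 were at 1 or more (exact 95% interval up to 2.48%), against 2.08% of all such probes, so a difference was not detectable at this number. Of the same 147, 28 were at -1 or less (19%), against 24.2%. They were spread unevenly. Cyp1b1 had 5 of its 10 GC-rich probes at -1 or less, Cyp2s1 3 of 8, and Cyp2r1 3 of 4, while Cyp26b1 had 0 of 13 and Cyp4f39 0 of 7. Below that content the P450 share on the CREM side was the smaller one in every class: 9.49% against 13.1% under 36% G and C, 6.21% against 12.5% at 36 to 40%, 4.01% against 11.1% at 40 to 44% and 4.81% against 6.8% at 44 to 48%. The part of base composition and brightness in the calls was not tested.

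**Figure D2:**
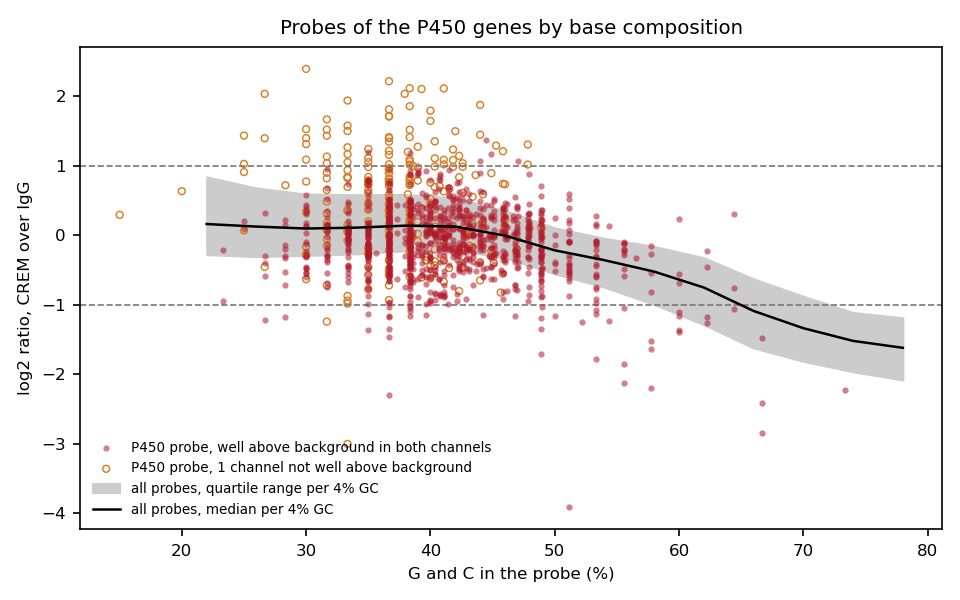
Log2 ratio of CREM over IgG (vertical) against G and C content (horizontal, percent) for the 1261 P450 probes used, with the median and quartile range of all probes. The P450 probes follow the all-probe median downward above 48% G and C, and 62 of the 68 points at 1 or more are open, with 1 channel not well above background.

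The starts of 42 P450 genes could be placed on the arrays by matching probes to RefSeq promoters. For the other P450 genes no start was matched, so their probes were not counted by distance. In all genes, CREM-side probes were most frequent upstream of the start and IgG-side probes at it. From -500 to -200 bp, 3 of 53 P450 probes were at 1 or more (5.66%, exact 95% interval 1.18 to 15.7%), against 20.5% of all probes. From 500 to 1000 bp downstream, 2 of 72 were (2.78%, 0.338 to 9.68%), against 15.2%. From -1000 to -500 bp the share of P450 probes was 14.8% (6.98 to 26.2%) against 18%, so the all-probe share lay inside the interval. In the outer parts it was 4.33% against 6.4% from -5500 to -2000 bp, 5.98% against 10% from -2000 to -1000 bp and 2.87% against 8.87% from 1000 to 2500 bp. At the start itself it was 4.76% against 9.39% (-200 to 200 bp), and from 200 to 500 bp it was 13.5% (5.59 to 25.8%) against 11.3%. The arrays differed in that last part, with 2 of 28 P450 probes on array 1 (7.14%, 0.877 to 23.5%), under the share of all its probes, and 5 of 24 on array 2 (20.8%, 7.13 to 42.2%), against 12%, and both intervals held the share of all probes. Within 200 bp of the start, 10 of 84 P450 probes were at -1 or less (11.9%, 5.86 to 20.8%), against 26.6% of all probes. On array 1 it was 8 of 48 (16.7%, 7.48 to 30.2%), against 27.2%, which lay inside the interval. On array 2 it was 2 of 36 (5.56%, 0.68 to 18.7%), against 25.9%. From 200 to 500 bp the share over both arrays was 5.77% against 21.6%, from 500 to 1000 bp 5.56% against 7.89%, and from -500 to -200 bp 1.89% against 7.44%. Farther out both were low, at 3.15% against 2.94%, 3.42% against 2.47% and 3.28% against 3.19% in the upstream parts and 3.45% against 3.32% downstream. The P450 probes within 200 bp averaged 45.0% G and C, against 52.0% for all probes.

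**Figure D3:**
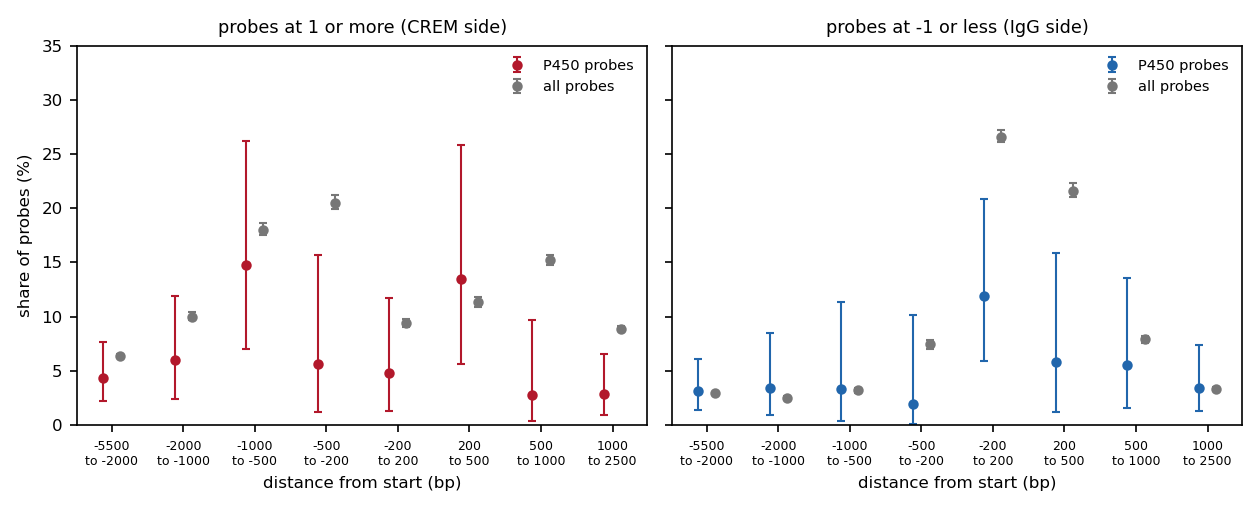
Share of probes at 1 or more (left) and at -1 or less (right) by distance from the start in bp, for P450 probes and all probes, with exact 95% intervals for counting error. The P450 share lies under the all-probe share from -500 to -200 bp on the left and from -200 to 200 bp on the right.

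Values close to the start were also taken gene by gene. Of 24 P450 genes with at least 3 probes within 300 bp, 17 had a median between -0.5 and 0.5 (70.8%), against 47.1% of 7949 genes in all. At 0.5 or more were 2 (8.33%), against 13% of all genes, and at -0.5 or less were 5 (20.8%), against 39.9%. The high ones were Cyp2j5 (0.89) and Cyp4f13 (0.75). The lowest were Cyp2s1 (-1.68), Cyp20a1 (-1.16) and Cyp2r1 (-1.06). In these 3 genes the lowest probe lay after the start, at 137 bp in Cyp2s1 (-2.23), 157 bp in Cyp20a1 (-1.39) and 263 bp in Cyp2r1 (-2.13).

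**Figure D4:**
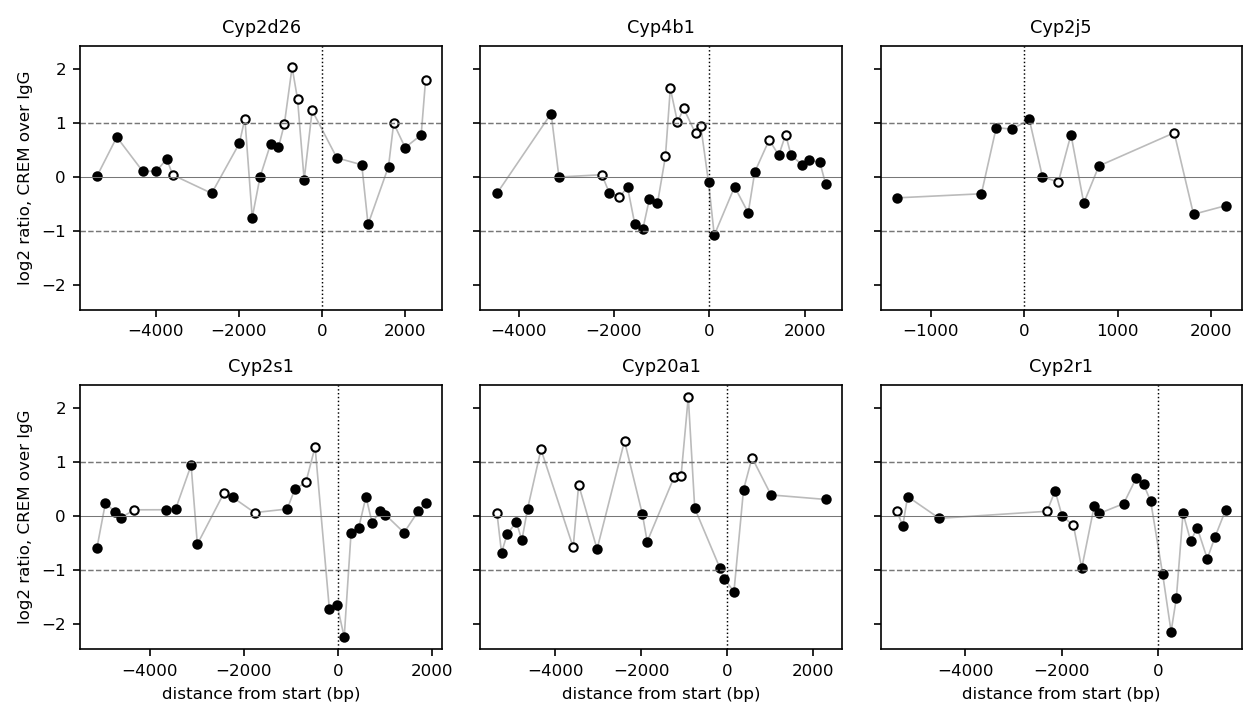
Log2 ratio of CREM over IgG of single probes against distance from the start (bp, dotted line at 0) for Cyp2d26, Cyp4b1 and Cyp2j5 (top) and Cyp2s1, Cyp20a1 and Cyp2r1 (bottom); filled points are well above background in both channels. Within 1000 bp before the start, the probes of Cyp2d26 and Cyp4b1 above 1 are open, while the raised probes around the Cyp2j5 start and the probes under -1 in the bottom row are filled.

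No full cAMP response element was found at the P450 genes. The full element TGACGTCA was in 0 of 1261 P450 probes (exact 95% interval up to 0.292%), against 0.057% of all probes. The core TGACG, on either strand, was in 9 P450 probes (0.714%), against 2.08% of all probes. Those 9 probes had a median of -0.46, against -0.07 for all probes with the core, and the lowest was a Cyp2r1 probe at -2.13. None of the 9 was at 1 or more (exact 95% interval up to 33.6%), against 11.6% of all probes with the core, so a difference was not detectable. RefSeq promoters were read from 250 bases before to 50 after a start on build GRCm38.p6. The full element was in 0 of 64 P450 promoters (exact 95% interval up to 5.6%), against 1.79% of all promoters, and the core was in 4 (6.25%), against 20.8%. The 64 promoters came from 56 genes and some overlap, such as those of Cyp4f14, so that interval counts repeats of a sequence as separate and is too narrow. For the full element, both limits lie above the share of all probes or promoters, so a difference was not detectable at these numbers. The core includes the full element.

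The 4 promoters with a core belonged to Cyp20a1, Cyp2j9, Cyp2j5 and Cyp8b1. Those of Cyp20a1, low on the array, and Cyp2j5, just under the CREM threshold, are printed with the core in capitals, 5′ to 3′ on the strand of the gene. A match is a description and not a binding site.
Cyp20a1 promoter, plus strand, chr1:60343050-60343349: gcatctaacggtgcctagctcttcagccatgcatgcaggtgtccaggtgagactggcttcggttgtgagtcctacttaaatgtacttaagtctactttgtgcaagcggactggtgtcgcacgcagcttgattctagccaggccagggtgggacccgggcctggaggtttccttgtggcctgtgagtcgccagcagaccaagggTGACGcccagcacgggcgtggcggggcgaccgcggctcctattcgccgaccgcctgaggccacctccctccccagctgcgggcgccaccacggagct
Cyp2j5 promoter, minus strand, chr4:96664070-96664369: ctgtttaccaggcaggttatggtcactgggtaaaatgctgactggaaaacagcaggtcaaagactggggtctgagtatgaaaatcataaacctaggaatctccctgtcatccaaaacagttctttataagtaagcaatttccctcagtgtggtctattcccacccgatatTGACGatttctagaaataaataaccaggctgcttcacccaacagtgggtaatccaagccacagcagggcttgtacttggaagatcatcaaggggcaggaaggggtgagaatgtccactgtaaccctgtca

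The Cyp20a1 promoter held 20 CG dinucleotides at 63% G and C and the Cyp2j5 promoter held 2 at 45.3%. P450 promoters held few in general, with a median of 2.5 against 7 for all promoters. The ratio of observed to expected CG dinucleotides reached 0.6 in 6 of 64 (9.38%), against 35.8% of all promoters. These were Cyp46a1, Cyp26a1, Cyp4v3, Cyp2r1, Cyp20a1 and Cyp1b1. Of these 6, Cyp2r1, Cyp20a1 and Cyp1b1 were called on the IgG side, against 33.6% of all genes. The share called among all genes with such promoters was not counted. The called window of Cyp1b1 had its middle 1411 bp after the start, outside the promoter stretch.

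Genes that work with P450 enzymes, from a list of electron donors, receptors, conjugating and retinoid enzymes, were read in the same way. Of 41 measured, 11 were on the CREM side (26.8%), against 34.4% of all genes, and 16 on the IgG side (39%), against 33.6%. Their median highest window was 0.63, against 0.77 for all genes, and their median lowest -0.83, against -0.76. Among the electron donors, Fdx1, the ferredoxin that feeds mitochondrial P450 enzymes, stood at 2.05 (probes at 1.72, 2.85 and 2.05), a difference of at least 2.77-fold on the bound. The lowest window of Fdx1 was at -2.13, so it was called on the IgG side too. Pgrmc1, a haem protein that binds P450 enzymes, stood at 1.58, at least 2.09-fold, and its lowest window at -2.77 was the larger in size. Fdxr, the reductase of ferredoxin, stood at 1.43, at least 1.82-fold, with its lowest window at -1.04, while Por, the reductase of microsomal P450 enzymes, reached 0.50. Of the 8 electron donors measured, 3 were called for CREM (37.5%) and 6 for IgG (75%). Of the receptors, Ahr was at 1.63 (at least 1.77-fold), with its lowest window at -1.14, and its partner Arnt at 1.28 (at least 1.09-fold). Among enzymes of conjugation and retinoid synthesis, Gstp1 was at 1.34, a 2.53-fold difference, with all 3 probes well above background. Its probes did not go the same way, at 1.34, 1.44 and -2.06. Ugt1a1 was at 1.23 (at least 1.46-fold), and no fold could be given for Rdh11 (1.69), Aldh1a3 (1.57), Aldh1a1 (1.23) and Sult1e1 (1.03). For comparison, Cyp51, the sterol demethylase kept out of the set, stood at 2.60 with all 3 probes well above background, a 6.06-fold difference, and Cyp17a1, of androgen synthesis, at 0.31.

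Both arrays were of like quality for these genes. The CREM signal was well above background for 96.7% and 96.4% of the P450 probes on arrays 1 and 2, and the IgG signal for 74.7% and 80.8%. Over all probes it was 96.3% and 95.5% for CREM and 77.4% and 78.5% for IgG. Repeated control spots had a median SD of 0.14 and 0.12 on the log2 scale, over 17 control probes on each array. That spread is within an array and says nothing of a repeated precipitation. The number of arrays, 2 with different probes, limits the precision of everything above.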

How the data were processed

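Scans were quantified in Agilent Feature Extraction 10.7.1.1, with positions on mm9, per the file headers. The deposited scanner files give intensity per channel, background-subtracted and dye-normalised in the processed columns used here, flags (an other unit), and a log10 ratio, per the file headers. Log2 ratios fill the authors' deposited value table; median-background subtraction and loess in limma returned them to within 5.00e-08 and 4.93e-08 on arrays 1 and 2. Its medians were -0.00096 and -0.00103, and its direction is CREM over IgG. R 2.10.1 and limma are named in the submitters' processing notes.

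Ratios were centred on each array's median over the probes used (shift 0.02 on both). Control spots, outlier spots, probes with no position and probes dim in both channels were left out, which left 228275 and 226404 probes. No loess was applied, since many promoter probes may carry signal. A window belonged to the gene of its middle probe. Starts were placed by exact matches of 30 bases between probes and RefSeq promoters of GRCm38.p6. Promoter coordinates are in that build and were not converted. All 72 names matched RefSeq (Cyp2c44 is now Cyp2c23), and 56 genes had a promoter. Exons and introns are not stated, for want of an annotation on mm9.

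The members and lists were chosen with earlier results of these data known. Named were the 12 highest and 8 lowest members, the extremes of each role, those next to a threshold, the retinoid, vitamin D and aromatase genes, called partner genes, and Cyp51 and Cyp17a1; others in the text were chosen after their values were seen. Alternatives were normexp background correction (offset 50), loess, the authors' values, no centring, removal of the GC trend, filters on dim probes, other windows, gaps and thresholds. Intervals are exact binomial at 95%. Python 3.11.15, pandas 2.3.3, scipy 1.17.1, R 4.3.3 and limma 3.58.1 were used, and scripts were tested on simulated data. No p-value was computed, since each group had 1 array.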

Additional observations from a re-analysis of the deposited data

How the results depend on the processing

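No paired analysis was possible because each group held 1 array and no test was run. Counts of P450 genes on the CREM side, 3 on array 1 and 4 on array 2, changed to 0 and 1 with normexp and with the authors' deposited values, to 0 on array 1 with loess, to 1 on array 1 with the GC trend removed, to 1 and 2 with windows of 5 probes, and to 0 on both with a threshold of 1.5 or with probes well above background in both channels. The single call with normexp was Cyp39a1 and that with the authors' values was Cyp2c37, so 0 of the 7 P450 calls on the CREM side were kept under either, against 37.9% and 49.1% of the calls of all genes. Counts on the IgG side, 4 and 3, changed on array 1 to 0 with normexp and to 2 with the GC trend removed, with windows of 5 probes or with a threshold of -1.5, and on array 2 to 1 with windows of 5 probes and to 5 with dim probes included. With probes well above background in both channels, 20.8% of all genes were called on the CREM side, and with normexp 16.2% were. The median highest window, 0.48, became 0.33 with normexp, 0.36 with the authors' values, 0.38 without the GC trend, 0.35 with bright probes and 0.30 with 5 probes. The median lowest window, -0.53, became -0.15 (normexp), -0.41 (authors' values), -0.43 (bright probes) and -0.36 (5 probes). Partner genes on the CREM side, 11, became 6 with normexp, 4 with the authors' values and 5 with bright probes. Cyp2c29 turned to -0.19 with normexp and to -0.37 with bright probes. Over 6 alternatives, Cyp26c1 and Cyp1b1 stayed at -1 or less in 6 and Cyp2s1 in 5. Cyp2r1 and Cyp20a1 did so in 4, and Cyp24a1 and Cyp2d22 in 3. With the GC trend removed, 3 of the 7 P450 calls on the IgG side were kept (42.9%), against 31.2% of the calls of all genes. On the CREM side, Cyp2c65, Cyp2d26 and Cyp4f13 stayed at 1 or more in 3 alternatives, Cyp4b1 and Cyp2c29 in 2, and Cyp4a14 and Cyp4x1 in 1.

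Other settings were chosen after seeing the data. Raising a dim channel to the lowest bright signal gave 0 and 0 genes on the CREM side and a median highest window of 0.35, as fixed by its construction for windows with dim IgG probes. Leaving out probes of 48% GC or more gave 0 and 0 genes on the IgG side and a median lowest window of -0.39, against 3.74% called and -0.38 for all genes, and leaving out probes with the core moved no count. The cause of these changes was not tested. The IgG signal limits the CREM side: it was not well above background in 22.8% and 16.3% of the P450 probes used on arrays 1 and 2.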
